A study of Mus musculus with 12 samples.

Results

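Transcript levels of marked and unmarked plasma cells were compared within specimens over both collection days. All 6 libraries of human CD4+ cells (marked) were set against all 6 of human CD4- cells (unmarked), and the 2 libraries that share a specimen number in their names formed a pair, which gave 6 pairs and used the 12 of 12 libraries of the series. The cells were sorted from the bone marrow of C57BL/6 mice of the genotype BLTcre.mcl1fl/+, so 1 Mcl1 allele is floxed in both populations, and every mouse had received tamoxifen, which switches on a human CD4 reporter gene. Of the pairs, 3 came from day 60 and 3 from day 270 after tamoxifen. The labels do not give the promoter behind the Cre, the share of plasma cells that became marked, the ages of the mice, the sort gates, or whether a specimen was 1 mouse or a pool. P-values therefore measure the spread between these samples.

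Plasma cells are the antibody-secreting end stage of the B lineage. Newly formed ones arise from dividing precursors and still carry antigen-presenting class II molecules and other B cell surface proteins, which are lost as the cells mature, while a subset persists for long periods in bone marrow niches. A reporter switched on by a drug pulse stays in the cells that carried it and in their descendants, so marked cells descend from cells present at the pulse, and unmarked cells can be cells formed later or cells in which the switch failed.

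The libraries held 7449468 to 15943547 reads on the genes of the table, and 11022 to 13506 genes had a read. Features resembling ribosomal RNA took 29.8% of the reads of the marked library of day 270 pair 2 and 12% in that of day 60 pair 2, against 0.236% to 3.18% in the other 10 libraries. The replicate 1 libraries of the 4 groups carry the library numbers 5 to 8, the other unmarked libraries 13 to 16 and the other marked libraries 22 to 27, and the labels do not say what the number is. Outside replicate 1, the number and the marking cannot be told apart. All 10 plasma cell markers looked for had reads in 12 of 12 libraries, with Jchain, the joining chain of secreted IgM and IgA, at 163500.0 to 245808 CPM (median 216392) in unmarked and 79037 to 312679 (median 204109) in marked libraries (CPM are reads scaled to a common total over the genes of the table). Among B cell markers, Pax5, Cr2 and Fcer2a were near 0, with medians of at most 3.02 CPM in either population, whereas Ms4a1, which encodes CD20, ran from 187 to 313 CPM (median 250.1) in unmarked and 187 to 309 (median 224) in marked libraries.

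Mcl1 encodes the anti-apoptotic protein on which plasma cells depend, and both populations carry its floxed allele. Whether that allele was recombined in the marked cells, in which the Cre acted, was not analysed here, since the table has 1 value per library for the gene. Unmarked libraries held 483 to 589.6 CPM (median 538) and marked libraries 342 to 513 (median 405). The marked library was the lower one in 6 of 6 pairs, with overlapping populations, and the difference of -0.35 ± 0.11 (log2 fold change with its standard error, here and below marked minus unmarked on the log2(CPM + 0.5) scale, which understates the change of low genes) did not pass (limma adjusted p 0.126). The median log2 fold change of all tested genes was -0.18.

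**Figure D1:**
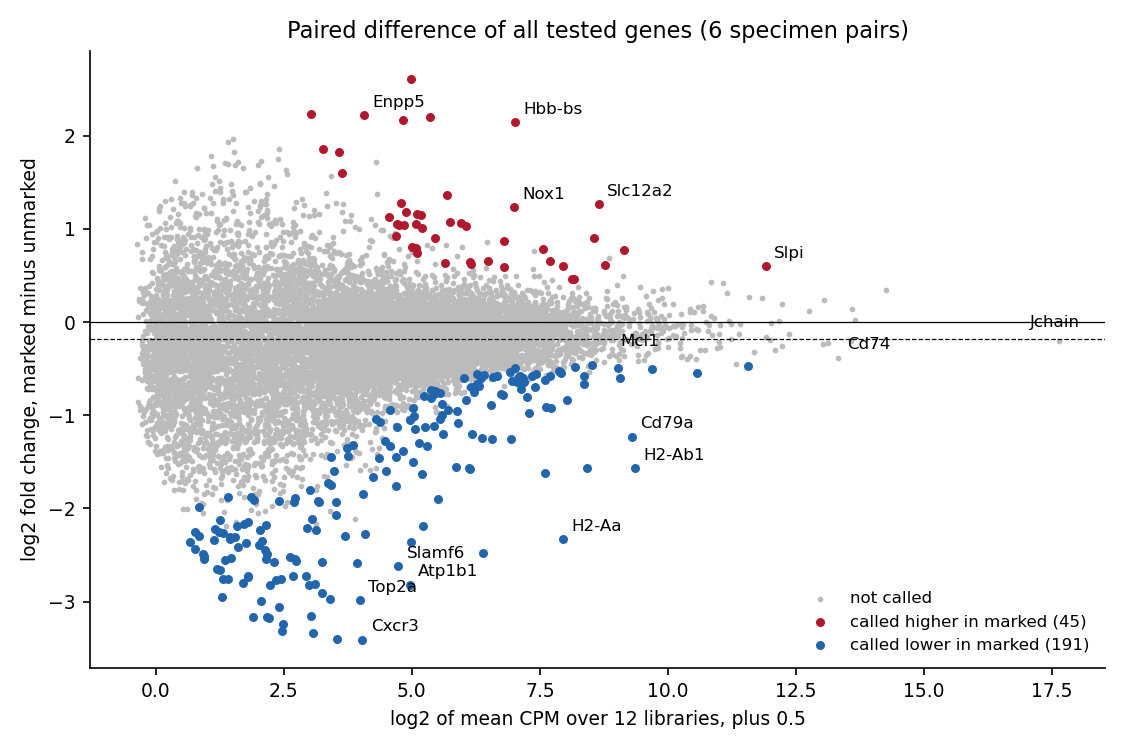
Log2 fold change of each of the 12704 tested genes (vertical axis, marked minus unmarked) against the log2 of its mean CPM plus 0.5 (horizontal axis), with called genes in red (45 higher) and blue (191 lower) and all others in grey. The dashed line is the median of all genes, -0.18, and the falls reach -3.41 while the rises end at 2.61.

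The paired limma fit called 236 of 12704 genes at a Benjamini-Hochberg adjusted p under 0.05, 1.86% of those tested. Of these, 45 were higher in marked cells (0.354%) and 191 lower (1.5%). Called falls had a median log2 fold change of -1.60 (from -3.41 to -0.46) and called rises one of 1.04 (from 0.46 to 2.61). In 42 of the 45 higher and 184 of the 191 lower genes the difference had 1 sign in all 6 pairs, where 1.85% and 7.64% of all tested genes had it (9.49% together). The 2 populations did not overlap at all for 13 higher and 117 lower genes, against 0.276% and 1.85% of all tested genes (2.13% together). Among the lower genes, 73 had a library without reads. A negative log2 fold change was found for 70.4% of all tested genes, the share to set beside the sign counts of lists below.

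The balance of rises and falls depends on scaling and on the tool. With TMM scaling, which moves the median of all genes from -0.18 to -0.06, limma called 155 genes higher and 214 lower, and 229 of the 236 genes were among them. In limma-voom (221 higher, 192 lower) and edgeR (123 higher, 119 lower) the rises were the more numerous. Leaving out 1 pair in turn gave 117, 88 and 130 calls without day 60 pairs 1, 2 and 3, and 102, 213 and 393 without day 270 pairs 1, 2 and 3. Without the 2 pairs whose marked library was rich in ribosomal-like features, 86 genes were called (28 higher, 58 lower), of which 72 belong to the 236. For the called genes named below, the number of alternative analyses in which the call held is given where it is 14 or fewer, of 23 or, for genes under a mean of 5 CPM, of 22. It was not counted for the called genes chosen after their values were seen, which are described at the end.

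Class II genes of the major histocompatibility complex, which present antigen to T cells, gave 3 of the 4 smallest p-values of the table. Of 11 members tested, 6 fell, all 11 had a negative log2 fold change and 8 were lower in every pair. Their median was -1.12 against -0.18 for all genes. H2-Aa, the alpha chain of I-A (chromosome 17, 34282744 to 34287823, GRCm38), stood at 287 to 465 CPM (median 419.6) in unmarked libraries and at 47.8 to 157 (median 74.3) in marked ones. The lowest unmarked library lay above the highest marked one, and the difference was -2.33 ± 0.17 (limma adjusted p 1.06e-06).

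H2-Ab1, the partner chain of I-A, had 729.7 to 1161 CPM (median 982) in unmarked and 254 to 414 (median 319) in marked libraries, again without overlap (-1.57 ± 0.11, limma adjusted p 1.06e-06). The I-E beta chain gene H2-Eb1 had 399 to 556 CPM (median 531) in unmarked and 126 to 219.9 (median 179) in marked libraries and changed by -1.56 ± 0.10 (limma adjusted p 3.80e-07). These 3 genes were called in all 23 alternatives. H2-Eb2, a second beta chain gene of the I-E region, changed by -1.21 ± 0.17, with 51.96 to 82.02 CPM (median 67.1) and 24.6 to 42.1 (median 26.9). H2-Ob, a chain of the peptide-exchange inhibitor H2-O, ran at 56.97 to 90.1 CPM (median 65.4) in unmarked and 3.22 to 34.7 (median 23.2) in marked libraries (-1.90 ± 0.30). Its lowest unmarked library was above every marked one. H2-DMa, a chain of the peptide exchanger H2-DM, changed least of the 6 (-0.76 ± 0.18), its populations overlapped, and its call held in 6 of 23 alternatives.

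The genes around the class II chains did not all pass. Cd74, the invariant chain that escorts class II molecules, is among the most abundant transcripts, at 10415 to 13483 CPM (median 11383) in unmarked and 7684 to 10154 (median 9028) in marked libraries. Its populations did not overlap and 6 of 6 pairs were lower, but the log2 difference of -0.38 ± 0.13 missed the threshold (limma adjusted p 0.172). Ciita, the master activator of class II transcription, was close to the detection limit, at 0 to 6.01 CPM (median 0.552) and 0 to 0.564 (median 0) (-1.06 ± 0.57, limma adjusted p 0.359). H2-DMb1 had a log2 fold change of -0.43 ± 0.19 and H2-DMb2 of -1.12 ± 0.51 (limma adjusted p 0.264 and 0.279). MHC class I and peptide-loading genes had 1 fall, Erap1 (8 of 23 alternatives), among 18 tested and a median of -0.08, and that median was 0.05 with TMM scaling.

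Promoters of class II genes are known for a Y box, which holds the letters CCAAT. The 150 bases before the start of the 3 called genes of smallest p with an entry in the RefSeq promoter table (GRCm38.p6) are shown, written along the gene's strand, because these genes fell together; capitals mark CCAAT on either strand.
H2-Eb1 (chr17:34305717-34305866, + strand): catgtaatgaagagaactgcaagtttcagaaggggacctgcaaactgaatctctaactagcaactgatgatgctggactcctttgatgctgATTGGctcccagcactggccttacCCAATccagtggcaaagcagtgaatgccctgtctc
H2-Aa (chr17:34287824-34287973, - strand): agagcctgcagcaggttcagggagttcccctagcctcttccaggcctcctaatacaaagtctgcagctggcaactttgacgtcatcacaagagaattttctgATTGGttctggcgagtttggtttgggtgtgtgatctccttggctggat
H2-Eb2 (chr17:34325525-34325674, + strand): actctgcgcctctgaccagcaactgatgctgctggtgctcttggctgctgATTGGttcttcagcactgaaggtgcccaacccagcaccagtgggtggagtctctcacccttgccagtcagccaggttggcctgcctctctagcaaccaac
Over windows from 250 bases before to 50 after the start, 5 of the 6 called class II genes had an entry, with 6 windows, and 5 of the 6 windows (83.3%) held CCAAT on either strand. The letters stand in 37.4% of the 32851 windows searched. A match is a description of the letters only.

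B cell receptor and B cell genes fell in part. Of 26 tested, 5 fell, and the median was -0.48. Cd79a encodes a chain through which the B cell receptor signals. It ran from 757 to 983 CPM (median 899) in unmarked and from 243 to 449 (median 386) in marked libraries. No marked library reached the lowest unmarked one (-1.23 ± 0.14, limma adjusted p 0.00014), and the call held in 23 of 23 alternatives. Its partner Cd79b, named here after its values were seen, had 727 to 774 CPM (median 742) against 561 to 811 (median 699) and did not pass (-0.12 ± 0.10, limma adjusted p 0.563).

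Fcmr, the receptor for the Fc part of IgM, had 213 to 383 CPM (median 282) in unmarked and 46.7 to 139 (median 103) in marked libraries without overlap (-1.62 ± 0.19, limma adjusted p 0.000244). The kinases Blk and Lyn changed by -0.70 ± 0.15 and -0.60 ± 0.15, with calls kept in 14 and 7 of 23 alternatives. Siglecg, an inhibitory coreceptor of B cells, had 12.6 to 19.7 CPM (median 15.9) in unmarked and 0 to 4.70 (median 1.56) in marked libraries and fell (-2.91 ± 0.46, limma adjusted p 0.00318). Ms4a1 was higher in 3 pairs and lower in 3 (-0.07 ± 0.13, limma adjusted p 0.831), so the B lineage genes did not all move alike.

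**Figure D2:**
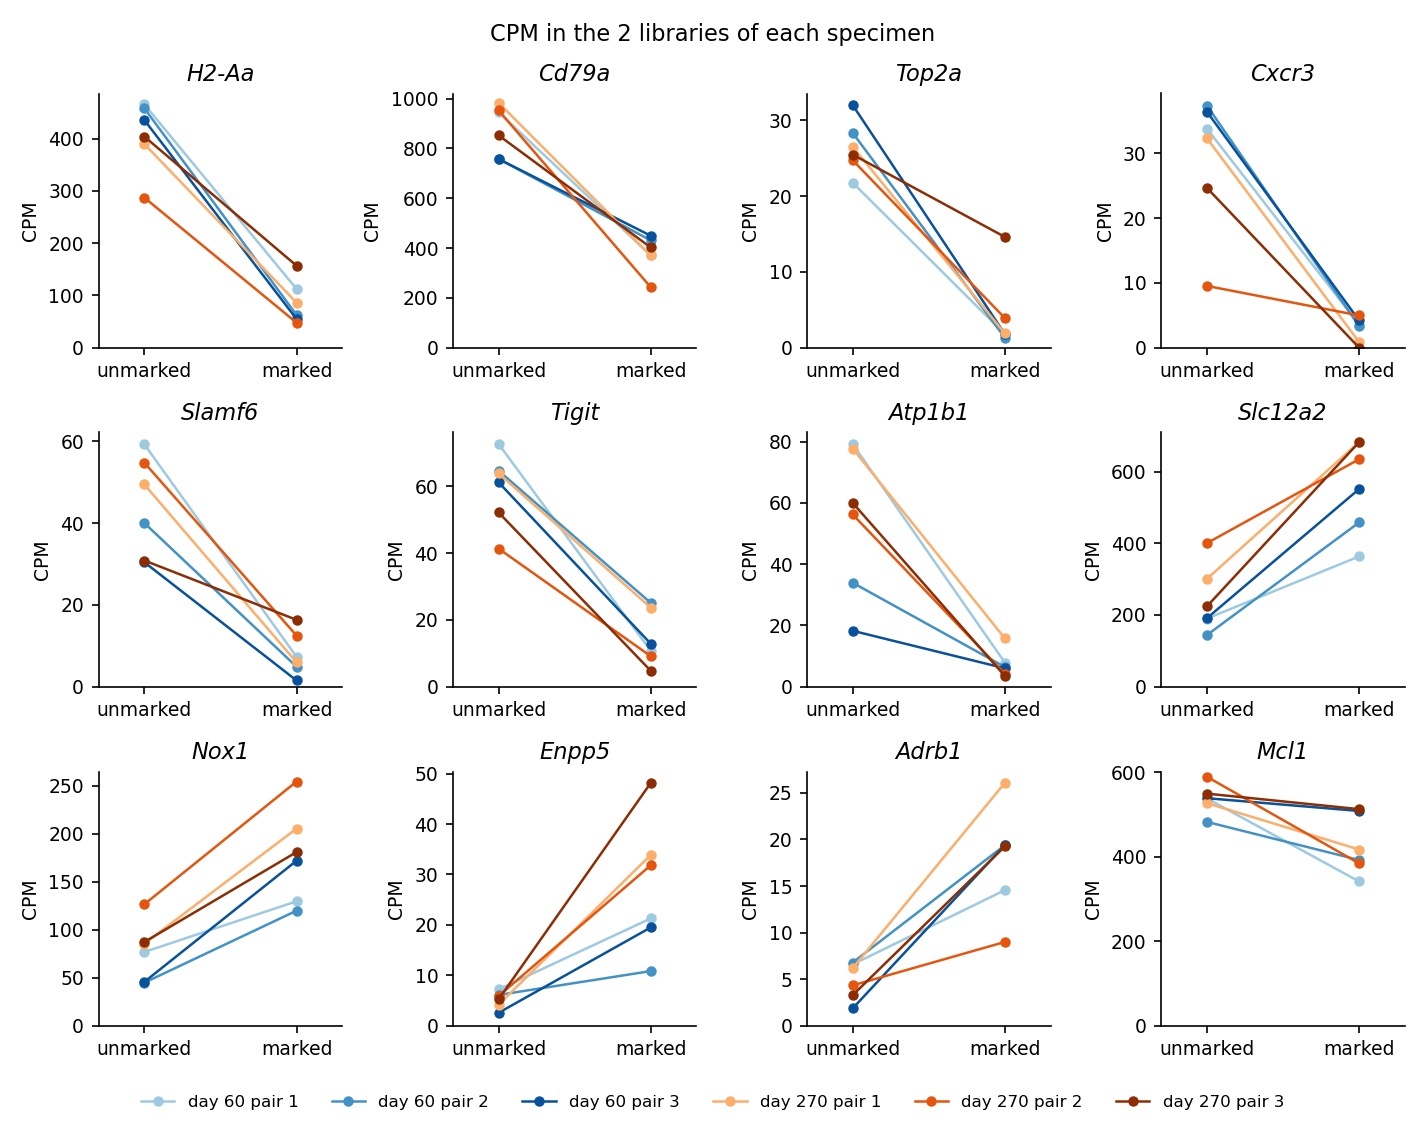
CPM of 12 genes (vertical axes from 0, linear) in the unmarked and the marked library of each of the 6 specimens, joined by a line, with day 60 pairs in blue and day 270 pairs in orange. Lines of H2-Aa, Cd79a, Top2a, Cxcr3, Slamf6, Tigit and Atp1b1 fall and those of Slc12a2, Nox1, Enpp5 and Adrb1 rise in all 6 pairs, while the marked Mcl1 values (342 to 513 CPM) overlap the unmarked ones.

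Genes of mitosis made up the largest block of falls. All 30 tested had a negative log2 fold change, 20 fell, 22 were lower in every pair, and for 15 the populations did not overlap. Their median of -2.40 was the lowest of the 38 lists other than cell type markers. Top2a, the topoisomerase that untangles replicated chromosomes, had 21.8 to 32.00 CPM (median 25.99) in unmarked and 1.31 to 14.6 (median 1.83) in marked libraries. The highest marked library was that of day 270 pair 3, and it still lay below every unmarked library (-2.99 ± 0.40, limma adjusted p 0.000934).

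Cdk1, the kinase that drives entry into mitosis, had 4.81 to 18.03 CPM (median 15.2) in unmarked and 0 to 3.69 (median 0.826) in marked libraries without overlap (-3.16 ± 0.42, limma adjusted p 0.000827). Ccna2, which encodes its partner cyclin A2, was at 7.41 to 18.2 CPM (median 15.05) against 0 to 5.08 (median 0.715) (-3.33 ± 0.54). Nek2, a centrosome kinase, had 439 reads over the unmarked and 9 over the marked libraries. Prc1, a protein of the spindle midzone, changed by -3.24 ± 0.46, Aurkb, a kinase of the chromosomal passenger complex, by -3.17 ± 0.47, and Birc5, the survivin gene of the same complex, by -2.82 ± 0.45. Further members that fell include Cdc20 (-2.57 ± 0.49), needed for the start of anaphase, and Plk1 (-2.34 ± 0.48, 12 of 22 alternatives), a mitotic kinase. The transcription factor gene Foxm1 (-2.15 ± 0.53) passed narrowly and held in 8 of 22 alternatives. Mki67, the gene of the Ki-67 antigen, had 23.4 to 68.9 CPM (median 32.4) in unmarked and 8.09 to 28.5 (median 23.3) in marked libraries, was lower in 5 of 6 pairs and did not pass (-0.93 ± 0.27, limma adjusted p 0.102). Summed over the 30 genes, the level was 210.4 to 312 CPM (median 285) in unmarked and 38.7 to 109.5 CPM (median 75.1) in marked libraries, which did not overlap. In bulk RNA, fewer cells in division and less of this RNA in each cell cannot be told apart. Without the 2 pairs rich in ribosomal-like features, 6 of the 30 were called and the median was -2.32.

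Cell cycle promoters are known to carry CCAAT boxes and an element called CHR, with the letters TTTGAA. The 150 bases before the start of the 3 called mitosis genes of smallest p with an entry are shown for the same reason. Capitals mark both motifs on either strand.
Cdk1 (chr10:69352913-69353062, - strand): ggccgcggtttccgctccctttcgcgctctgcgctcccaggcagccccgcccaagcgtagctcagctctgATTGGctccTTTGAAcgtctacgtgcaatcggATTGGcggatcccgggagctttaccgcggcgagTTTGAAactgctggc
Top2a (chr11:99024190-99024339, - strand): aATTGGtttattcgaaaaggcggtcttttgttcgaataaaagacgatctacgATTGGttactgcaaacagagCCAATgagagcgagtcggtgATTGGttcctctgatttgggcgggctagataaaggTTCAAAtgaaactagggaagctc
Prc1 (chr7:80294301-80294450, + strand): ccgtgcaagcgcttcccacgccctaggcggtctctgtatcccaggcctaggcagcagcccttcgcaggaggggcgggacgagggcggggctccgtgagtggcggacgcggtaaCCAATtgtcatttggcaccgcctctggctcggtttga
Of the 20 called mitosis genes, 16 had an entry, with 17 windows of 250 bases before to 50 after the start. CCAAT on either strand stood in 15 windows (88.2%, against 37.4% of all 32851), TTTGAA on either strand in 14 (82.4%, against 17.9%), and both in 14 (82.4%, against 6.95%). Matches of the 2 motifs can share an end letter, and no window was left out for that.

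Of 30 S phase genes, which serve DNA replication, 2 fell. All 30 estimates were below 0, and their median was -0.55. Rrm2, the inducible subunit of ribonucleotide reductase, had 29.3 to 44.9 CPM (median 37.5) in unmarked and 8.82 to 17.05 (median 13.8) in marked libraries (-1.45 ± 0.23, limma adjusted p 0.00347). Cdc45, part of the replicative helicase, changed by -2.49 ± 0.47. Among 25 genes of Myc, Pim kinases and the G1 phase, 4 fell. Ccnd2, which encodes cyclin D2, had 102 to 177 CPM (median 128) in unmarked and 31.5 to 71.4 (median 60.3) in marked libraries, without overlap (-1.26 ± 0.15, limma adjusted p 0.000224). The survival kinase gene Pim2 changed by -0.89 ± 0.15 and E2f2, a transcription factor of the G1 to S transition, by -1.12 ± 0.21. Myc, a growth regulator, had 8.05 to 19.2 CPM (median 16.5) in unmarked and 1.82 to 8.22 (median 4.78) in marked libraries. It was lower in 5 of 6 pairs, and its change of -1.75 ± 0.41 was called in 11 of 23 alternatives. In the polycomb list, Ezh2, the methyltransferase of repressive complex 2, fell (-1.45 ± 0.36, 9 of 23 alternatives), and Bmi1, a component of repressive complex 1, had 125 to 186 CPM (median 159) in unmarked and 182 to 376 (median 236) in marked libraries and rose (0.65 ± 0.12, limma adjusted p 0.00871).

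**Figure D3:**
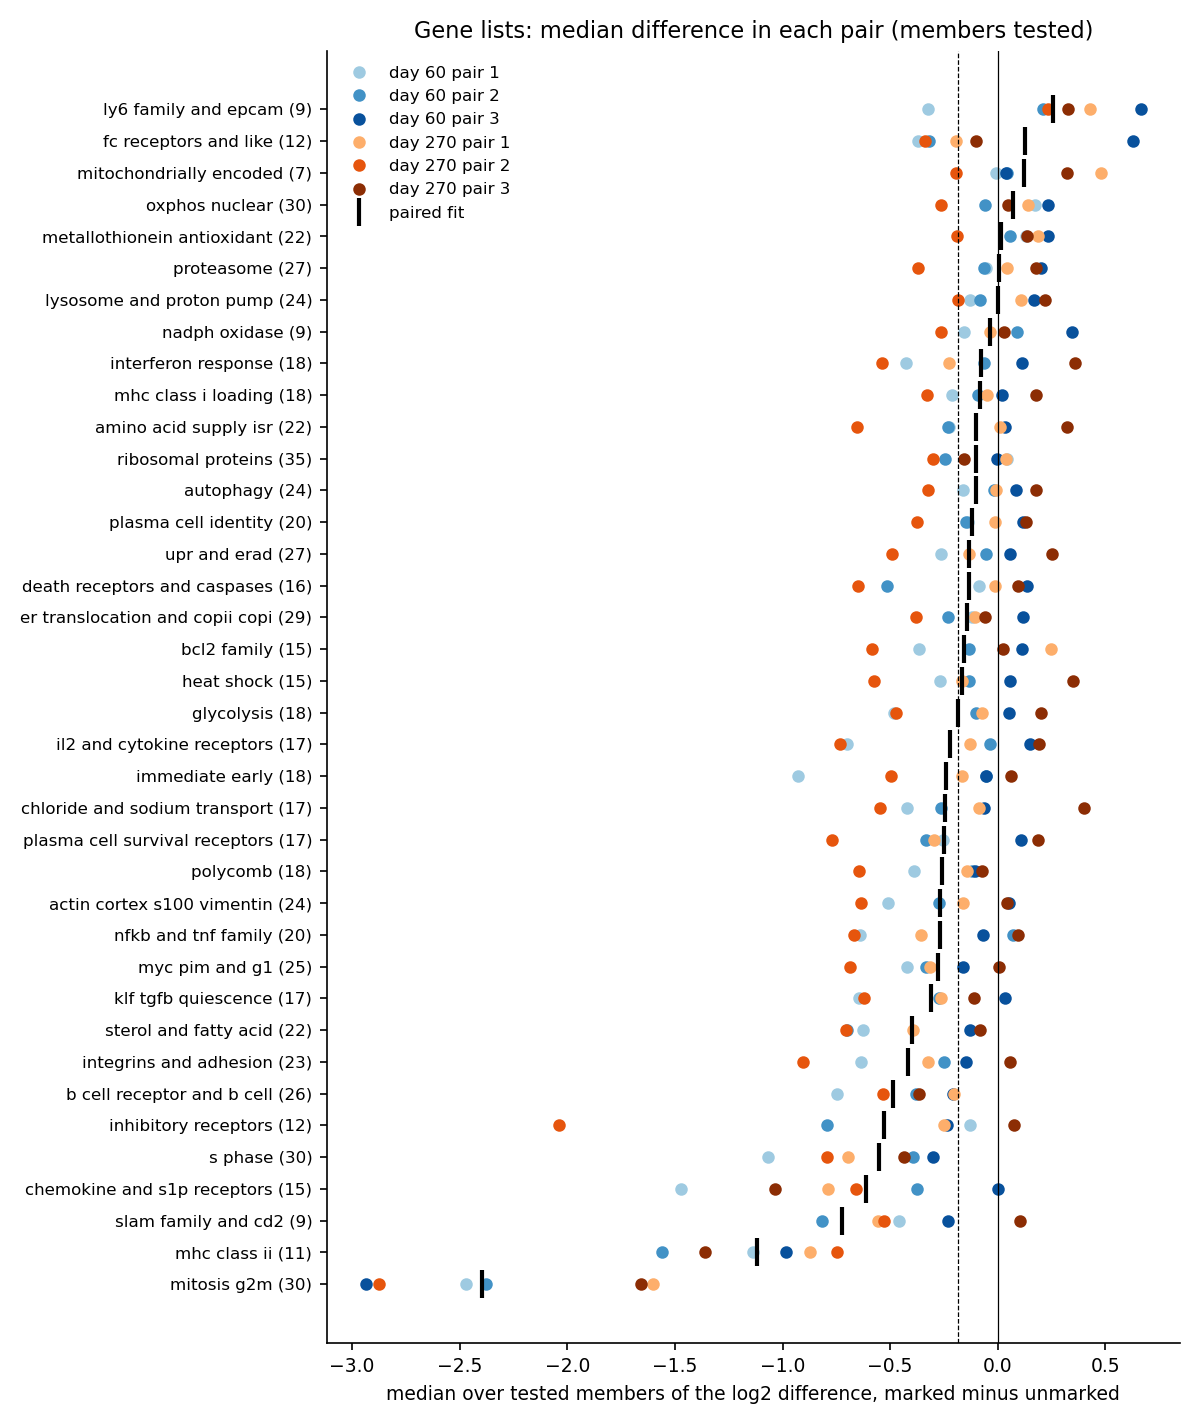
Median log2 difference over the tested members of each list (rows, member number in brackets) in each of the 6 pairs (coloured points) and in the paired fit (black bars), on a linear axis of marked minus unmarked. Mitosis genes (median -2.40), MHC class II genes (-1.12), S phase genes (-0.55) and B cell receptor and B cell genes (-0.48) lie below the all-gene median of the paired fit (dashed line, -0.18) in every pair. The all-gene median of a single pair ran from -0.59 (day 270 pair 2) to 0.07 (day 270 pair 3). In day 270 pair 2 the B cell list, at -0.53, lay above that pair's own all-gene median. Most lists spread around the dashed line, with day 270 pair 2 often lowest.

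Of 15 chemokine and sphingosine phosphate receptors tested, which guide cells between tissues, 3 fell, and the list median was -0.61. The signs, 11 negative and 4 positive, were near the all-gene share of 70.4% negative. Cxcr3, a receptor for interferon-induced chemokines and the largest fall among named genes, had 9.53 to 37.3 CPM (median 33.05) in unmarked and 0 to 4.97 (median 3.44) in marked libraries (-3.41 ± 0.49, limma adjusted p 0.00136). The populations did not overlap, although unmarked cells of day 270 pair 2 stood apart at 9.53 CPM. Ccr10, a mucosal homing receptor of plasma cells, had 64.95 to 150.3 CPM (median 104) in unmarked and 21.5 to 51.7 (median 30.99) in marked libraries without overlap (-1.58 ± 0.17, limma adjusted p 0.000106), a call kept in 23 of 23 alternatives. S1pr1, which guides lymphocytes out of tissues, was low throughout, at 3.51 to 8.43 CPM (median 6.24) and 0 to 3.22 (median 0.893) (-2.39 ± 0.50, 11 of 22 alternatives). Cxcr4, which retains plasma cells in the marrow, had 273 to 376 CPM (median 318) and 160.1 to 314 (median 299.5) and did not pass (-0.24 ± 0.12, limma adjusted p 0.316).

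Integrin and adhesion genes counted 4 falls among 23 tested, with a median of -0.42. Itga4 and Itgb7, which pair as the integrin alpha4 beta7, changed by -0.81 ± 0.16 and -0.62 ± 0.13, and Itgb2, the beta chain of LFA-1, by -0.46 ± 0.10. The call of Itgb7 held in 13 and that of Itgb2 in 8 of 23 alternatives. Itga4 ran at 152 to 235 CPM (median 192) in unmarked and 79.1 to 147 (median 112) in marked libraries, which did not overlap. Alcam, an adhesion molecule that binds CD6, changed by -0.60 ± 0.15 (10 of 23 alternatives). Among 24 genes of the actin cortex, Coro1a, an actin regulator of leukocytes, had 178 to 238 CPM (median 206) in unmarked and 91.5 to 124 (median 104) in marked libraries (-0.98 ± 0.12, limma adjusted p 0.000224) and Vim, the intermediate filament vimentin, had 42.7 to 69.9 CPM (median 50.4) in unmarked and 8.65 to 32.4 (median 17.6) in marked libraries (-1.63 ± 0.23). In neither of these did the populations overlap. Lsp1 (-0.72 ± 0.16, 13 of 23 alternatives) and Anxa2 (-1.73 ± 0.36) also fell. No member of the list was called higher, while 20 had a negative and 4 a positive log2 fold change.

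Of 9 tested genes of the SLAM family and Cd2, surface receptors of lymphocytes, 2 fell and 1 rose. Slamf6, a homophilic receptor of the SLAM family, was at 30.4 to 59.2 CPM (median 44.7) in unmarked and 1.52 to 16.3 (median 6.62) in marked libraries (-2.62 ± 0.33, limma adjusted p 0.000373). No marked library reached an unmarked one. Cd2, a related adhesion receptor, was lower in 5 of 6 pairs (-1.84 ± 0.45) and kept its call in 9 of 23 alternatives. Slamf9 moved the other way, at 79.8 to 188 CPM (median 139) in unmarked and 128 to 387 (median 226) in marked libraries, higher in 6 of 6 pairs (0.78 ± 0.12, limma adjusted p 0.00315). Of 12 inhibitory receptors, 2 fell. Tigit, a receptor for nectin ligands, had 41.4 to 72.8 CPM (median 62.6) against 4.76 to 25.1 (median 11.8) without overlap (-2.19 ± 0.25, limma adjusted p 0.000185), and Ctla4, which competes with CD28 for its ligands, changed by -1.35 ± 0.32 (12 of 23 alternatives).

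Among 17 cytokine receptor genes, 4 fell and 1 rose. Il2rb, the beta chain of the IL-2 and IL-15 receptors, had 8.37 to 32.4 CPM (median 17.2) in unmarked and 0 to 5.35 (median 2.03) in marked libraries (-3.40 ± 0.48, limma adjusted p 0.00136), and Il2ra, the alpha chain, had 267 reads over the unmarked and 9 over the marked libraries. Il4ra and Il21r, receptors for the helper cytokines IL-4 and IL-21, changed by -1.93 ± 0.45 and -2.12 ± 0.47 from low levels, with unmarked medians of 7.03 and 3.36 CPM, and their calls held in 9 and 11 of 22 alternatives. Il13ra1, an IL-13 receptor chain, had medians of 339.5 CPM in unmarked and 556 in marked libraries and was higher in 6 of 6 pairs (0.61 ± 0.12, limma adjusted p 0.0127). In the Fc receptor list, Fcer1g, the shared signalling chain of Fc receptors, rose (1.03 ± 0.21, 5 of 6 pairs), and Fcrl5, a receptor-like relative, fell (-2.54 ± 0.59, 5 of 6 pairs, 8 of 23 alternatives). Fas, a death receptor, was the 1 call among 16 death receptor and caspase genes, at 16.8 to 33.03 CPM (median 22.03) in unmarked and 0 to 13.7 (median 4.96) in marked libraries (-2.59 ± 0.53, limma adjusted p 0.0193). It was not called in 10 of the 23 alternatives, the fits without day 60 pair 3 or without day 270 pair 1 among them. In the tumour necrosis factor and NF-kB list, the ligand gene Ltb fell (-2.27 ± 0.47) and Ltbr, the lymphotoxin beta receptor, had 0.344 to 6.25 CPM (median 3.40) in unmarked and 5.01 to 37.3 (median 11.4) in marked libraries and rose (1.86 ± 0.43, limma adjusted p 0.0363), a call kept in 11 of 23 alternatives.

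Atp1b1, the beta subunit of the sodium pump, had 18.2 to 79.2 CPM (median 58.1) in unmarked and 3.46 to 15.7 (median 6.21) in marked libraries (-2.82 ± 0.31, limma adjusted p 0.000106). Its populations did not overlap and its call held in all 23 alternatives. Of 22 sterol and fatty acid genes, 21 were negative and 4 fell: the desaturase genes Scd1 (-1.001 ± 0.19), Scd2 (-0.52 ± 0.12) and Fads2 (-2.56 ± 0.56), and the fatty acid synthase gene Fasn (-0.84 ± 0.20). The calls of Scd2, Fads2 and Fasn held in 13, 11 and 12 of 23 alternatives. Scd1 stood at 26.3 to 84.8 CPM (median 73.2) in unmarked and 9.83 to 63.1 (median 31.4) in marked libraries, which overlapped. Mgat3 (-3.16 ± 0.48), a transferase that adds the bisecting sugar to N-glycans, and Ctsk (-2.95 ± 0.48), a lysosomal protease with 294 reads over the unmarked and 1 over the marked libraries (so that its estimate depends on the added 0.5), were among the 20 largest falls. So were Rasgrp1 (-2.99 ± 0.53), an activator of Ras downstream of antigen receptors, and Prf1 (-2.81 ± 0.42), the pore-forming protein of cytotoxic cells, whose levels are given with the T and NK cell markers.

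**Figure D4:**
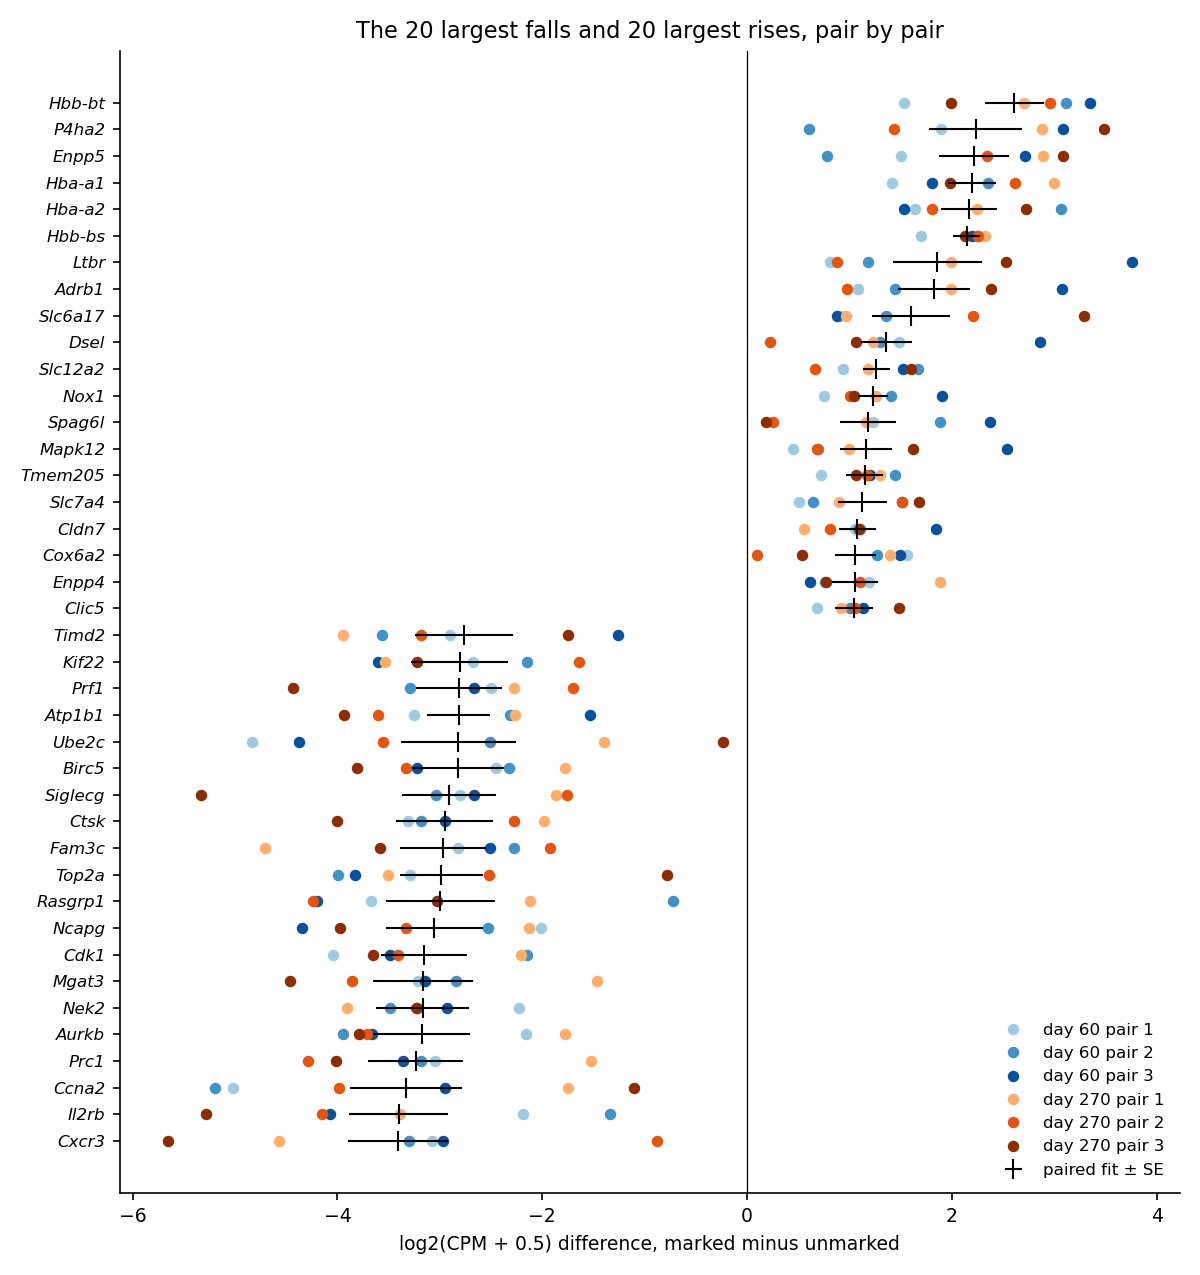
Log2(CPM + 0.5) difference in each of the 6 pairs (coloured points) for the 20 largest rises and 20 largest falls, with the paired estimate and its standard error (black). The rule required 1 sign in all pairs, and the points of Hbb-bs lie closest together (1.70 to 2.32) while those of Cxcr3 reach from -5.65 to -0.87.

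Slc12a2, a cotransporter of sodium, potassium and chloride, had 144 to 400.2 CPM (median 207) in unmarked and 363 to 682 (median 593) in marked libraries. Every pair was higher, by 0.66 to 1.67, although the highest unmarked library (day 270 pair 2) overlapped the lowest marked one (1.26 ± 0.13, limma adjusted p 0.000101). Slc6a17, a neutral amino acid transporter of vesicles, changed by 1.60 ± 0.38 and kept its call in 10 of 23 alternatives, and the solute carrier gene Slc7a4 by 1.13 ± 0.24. Nox1, an NADPH oxidase that makes superoxide, had 44.7 to 126 CPM (median 81.02) in unmarked and 119.7 to 254 (median 176) in marked libraries (1.23 ± 0.15, limma adjusted p 0.000224). Nox1 was the 1 call among 9 NADPH oxidase genes, of which 3 were called higher with TMM scaling.

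Enpp5, a membrane protein of the nucleotide pyrophosphatase family, had 2.55 to 7.20 CPM (median 5.54) in unmarked and 10.8 to 48.1 (median 26.5) in marked libraries and rose without overlap (2.22 ± 0.34, limma adjusted p 0.00257). Its neighbour on chromosome 17, Enpp4, a relative that hydrolyses a platelet nucleotide, had 12.6 to 21.4 CPM (median 17.2) in unmarked and 28.9 to 48.9 (median 32.5) in marked libraries, also without overlap (1.06 ± 0.22). Clic5, an intracellular chloride channel protein, is the next tested gene and changed by 1.05 ± 0.19. Adrb1, the beta-1 adrenergic receptor, had 1.86 to 6.78 CPM (median 5.25) in unmarked and 8.99 to 26.1 (median 19.3) in marked libraries, which did not overlap (1.83 ± 0.35, limma adjusted p 0.0127).

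P4ha2, a prolyl hydroxylase of collagen synthesis, was near the detection limit in unmarked cells, at 0.275 to 7.41 CPM (median 1.69), and at 2.62 to 28.5 (median 11.4) in marked cells (2.23 ± 0.46, limma adjusted p 0.0193). Dsel, an epimerase of dermatan sulfate, had 8.05 to 56.5 CPM (median 27.8) in unmarked and 51.04 to 111 (median 64.6) in marked libraries (1.36 ± 0.25). Cldn7, a claudin of tight junctions, rose by 1.08 ± 0.18 and was the 1 call among 9 genes of the Ly6 family and Epcam. Ly6a, which encodes Sca-1, had 1309 to 2548 CPM (median 1788) in unmarked and 2189 to 3048 (median 2333) in marked libraries. It was higher in 6 of 6 pairs and just missed the threshold (0.42 ± 0.11, limma adjusted p 0.0557). With TMM scaling 3 members of that list were called higher. The metallothionein genes Mt1 and Mt2, which bind zinc and copper, rose by 0.77 ± 0.17 and 0.90 ± 0.17. Mt2 ran at 118 to 456 CPM (median 275) and 289 to 588 (median 518), with overlap.

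Genes that define plasma cells are set beside the all-gene shares of 1.86% called and 1.5% called lower, at which a short list holds few or no calls. Of 20 identity genes, 1 fell, namely Cd38, an ectoenzyme of the cell surface. It had 26.6 to 96.4 CPM (median 64.00) in unmarked and 9.66 to 73.3 (median 41.4) in marked libraries, with overlap (-0.94 ± 0.21, called in 13 of 23 alternatives). The transcription factor genes Prdm1 (-0.36 ± 0.17), Irf4 (-0.34 ± 0.12) and Xbp1 (-0.13 ± 0.11) did not pass, with limma adjusted p-values of 0.276, 0.181 and 0.583. Sdc1, which encodes the plasma cell surface marker syndecan-1, had 1938 to 2342 CPM (median 2056) in unmarked and 1748 to 2329 (median 2115) in marked libraries (-0.03 ± 0.10, limma adjusted p 0.913). Tnfrsf17, the survival receptor BCMA, was higher in 5 of 6 pairs (0.16 ± 0.11, limma adjusted p 0.472). Cd93, a surface protein of persisting plasma cells, had a log2 difference of 0.15 ± 0.13 and the survival gene Bcl2 one of -0.15 ± 0.17, and neither passed. The list median was -0.12, and 0.01 with TMM scaling.

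Calls in the secretory and housekeeping machinery were few, as they would be at the all-gene shares of 1.86% called and 1.5% called lower. The counts do not set these lists apart from all genes. An unadjusted p under 0.05 was reached by 2190 of all 12704 tested genes, the share to set beside the unadjusted counts below. Of 27 genes of the unfolded protein response, 0 passed by limma, against 9 at an unadjusted p under 0.05, 8 of them lower. With TMM scaling 1 was called and by edgeR 1, both higher, while limma-voom and DESeq2 each called 2 higher and 1 lower. The smallest p-value belonged to Edem2 (-0.39 ± 0.10, limma adjusted p 0.0527), which helps clear misfolded glycoproteins. Copa, a coat protein of Golgi vesicles, was the 1 fall among 29 genes of translocation and vesicle coats (-0.49 ± 0.11, 12 of 23 alternatives). Gusb among 24 lysosomal genes (-0.53 ± 0.12) and Atg2a among 24 autophagy genes (-0.92 ± 0.20, 14 of 23 alternatives) were the only falls of their lists. With TMM scaling 3 lysosomal and 2 autophagy genes were called higher. The Bcl2 family had 0 calls by limma among 15, against 5 at an unadjusted p under 0.05, 4 of them lower. By edgeR 1 was called and by limma-voom 1, both higher, and of 2 by DESeq2, 1 was higher and 1 lower. Bcl2l11, the gene of the killer protein Bim, had -0.64 ± 0.18, Pmaip1, which encodes the Mcl1 antagonist Noxa, 0.75 ± 0.23, and Bid -0.80 ± 0.25. Amino acid supply, interferon response, glycolysis, nuclear oxidative phosphorylation, mitochondrially encoded, ribosomal protein, proteasome, heat shock and immediate early genes had 0 calls by limma among 190 tested. At an unadjusted p under 0.05 the 9 lists held 29 genes, 24 of them lower. Most calls of the other tools were higher: 1 of 1 by edgeR, 8 of 9 by limma-voom and 11 of 16 by DESeq2. The medians of the 9 lists ran from -0.24 (immediate early) to 0.12 (mitochondrially encoded). With TMM scaling the medians of the amino acid, interferon, ribosomal and autophagy lists turned from negative to positive, the highest of them 0.04.

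Transcripts typical of other marrow cells differed in part. The 4 adult globin genes rose. The most abundant, Hbb-bs, a beta-globin of red cells, had 17.2 to 85.6 CPM (median 36.01) in unmarked and 65.4 to 412 (median 171) in marked libraries (2.14 ± 0.13, limma adjusted p 3.80e-07), a call kept in all 23 alternatives. Every pair was higher, by 1.70 to 2.32, and the populations overlapped, the highest unmarked libraries (day 270 pairs 2 and 3) lying above the marked library of day 60 pair 1. Hba-a1 changed by 2.20 ± 0.24, Hba-a2 by 2.17 ± 0.27 and Hbb-bt by 2.61 ± 0.29. The copies are near identical, so how reads were divided between them is uncertain. Of the 9 erythroid markers tested the other 5 did not pass, and Slc4a1, the anion exchanger of red cells, had medians of 1.24 CPM in unmarked and 2.29 in marked libraries. The 10 erythroid genes in the table summed to 38.4 to 173 CPM (median 70.7) in unmarked and 111 to 811 CPM (median 306) in marked libraries.

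Neutrophil markers had 0 of 17 called by limma (2 at an unadjusted p under 0.05, 1 by edgeR, 2 by DESeq2, 7 by limma-voom), and their median of 0.72 was -0.78 in the replicate 1 pairs and 1.39 in the other pairs. They summed to 25.4 to 321 CPM (median 144) in unmarked and 1.94 to 877 CPM (median 386) in marked libraries, which overlapped. Monocyte and macrophage markers had 0 of 15 called by limma (6 at an unadjusted p under 0.05, 2 by edgeR, 3 by limma-voom, 6 by DESeq2) and a median of 0.42. Over all 12704 tested genes, 2190 had an unadjusted p under 0.05. Of 8 T and NK cell markers tested, 1 fell, 5 were negative and 3 positive (70.4% of all tested genes were negative), and the median was -0.76. The called gene, Prf1, had 10.05 to 21.1 CPM (median 13.8) in unmarked and 0 to 3.95 (median 1.79) in marked libraries. Their 10 genes in the table summed to 24.02 to 58.01 CPM (median 45.3) against 7.24 to 35.9 CPM (median 18.5), lower in marked cells in 6 of 6 pairs. Prf1 had the highest median of the 10 in unmarked libraries. Medians of Cd3d, Trac, Cd5 and Nkg7 were under 1 CPM in both populations, whereas those of the T cell genes Cd3g, mouse Cd4, Cd8b1 and Lck were 4.95, 7.74, 4.24 and 5.11 CPM in unmarked and 3.83, 3.03, 2.62 and 3.16 CPM in marked libraries. The part of such RNA in the falls of Cxcr3, Il2rb, Tigit, Slamf6, Cd2 and Ctla4, and of red cell RNA in the other rises, was not tested.

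**Figure D5:**
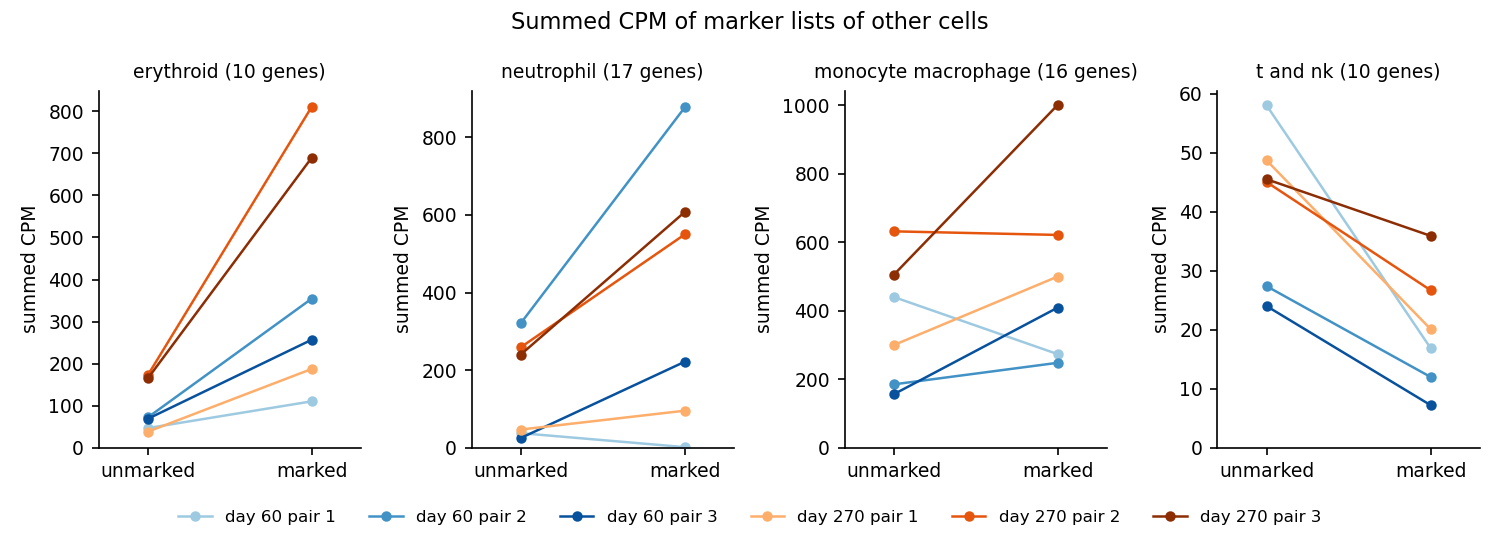
Summed CPM (vertical axes from 0, linear) of 4 marker lists of other cells in the unmarked and marked library of each specimen, joined by a line. The erythroid sum rises and the T and NK sum falls in all 6 pairs, while the neutrophil and monocyte and macrophage sums move both ways.

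The last question was whether the averaged differences hid unlike effects at the 2 days. The contrast of the day 270 with the day 60 effect called 0 of 12704 genes by limma (0%), with 357 at an unadjusted p under 0.05 and a smallest adjusted p of 0.9999. Neither edgeR nor limma-voom called any. DESeq2 called 2, Fcrl5 (-7.59) and the RNA cleavage factor gene Pcf11 (-5.06), each with a DESeq2 adjusted p of 0.0158. Fcrl5 had no reads in the 3 marked libraries of day 270, and Pcf11 had 8.72, 0 and 0.108 CPM there. All 236 called genes had the same sign in the day 60 pairs alone and in the day 270 pairs alone. Fitted alone, day 60 called 70 of them and day 270 called 15, and 163 were called at neither day.

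The same split was made by library number. In the replicate 1 pairs, whose library numbers are neighbours, all 236 genes had the sign of the full fit, and 12 passed in a fit of these 2 pairs. In the other 4 pairs all 236 again had that sign and 49 passed. The mitosis median was -2.16 in the replicate 1 pairs and -2.58 in the others, and the class II median -1.01 and -1.18. Since the 236 genes were chosen in a fit that holds these same pairs, their signs in subsets describe the fit and are no further test.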

How the data were processed

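Plasma cell RNA was extracted (RNeasy Micro) and sequenced after TruSeq RNA library preparation, per the labels' protocols. GRCm38 and limma are named in the submitters' processing notes, with no version or role; how reads were aligned and counted, and how cells were gated, was not given in the sources used here. Deposited tables of the authors hold counts for 230 genes and CPM for 14219 genes in the 12 libraries. The authors' log2 fold changes and p-values stand beside the CPM and were not used. Deposited CPM were turned back into reads: 100% of the 151342 values below 1000 reads came out whole to within 0.05 (at most 0.00798 off), and 2760 of 2760 cells of the count table were matched. The totals cover the genes of this table only.

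The main test was limma 3.58.1 in R 4.3.3 with a trended prior on log2(CPM + 0.5), with the specimen as a block and marking as the term, 5 residual and 11.03 prior degrees of freedom, two-sided, Benjamini-Hochberg over 12704 genes, called under 0.05. filterByExpr of edgeR 4.0.16 (minimum count 10 in 3 libraries) on the recovered reads removed 1515 of 14219 genes. Other tools were edgeR, limma-voom and DESeq2 1.42.0 on recovered reads. The pairing comes from the specimen number in the library names. Residuals of 2 libraries of 1 specimen had a median correlation of 0.0556 (from -0.0109 to 0.115, 6 pairs), and those of different specimens -0.0194 (12 pairs). The fit without the block was an alternative. On simulated data with the real means and library sizes, the paired fit recovered 8, 30, 44 and 50 of 50 genes changed by 0.5, 1, 2 and 3 on the log2 scale, with 9 false calls among 12504 unchanged genes. The changed genes were drawn from those with a mean over 5 CPM, so recovery of lower genes was not tested. No specimen effect and no shift of all genes was simulated. Symbols and positions are from GENCODE M21, which holds 14165 of the 14219 identifiers; 19 symbols that had become dates were restored. Promoter windows on chromosome 18 were left out.

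The members, the 47 gene lists and the tests were chosen with earlier results of these data known. Named genes are the 20 largest rises and 20 largest falls among called genes with 1 sign in all 6 pairs and a mean of at least 1 CPM in the higher population (unnamed gene models left out), called members of lists, a set of 23 genes whatever their values, and the 3 members with the smallest p of a list without calls. Tests across lists were not made. List medians and counts are descriptions. Some named genes are not reported here.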

Additional observations from a re-analysis of the deposited data

Results flagged for a closer look

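In 180 groups of 6 values, which were the pair differences of named genes or measures of the libraries of a population, 11 (6.11%) had 1 value whose gap to its neighbour exceeded Dixon's critical value of 0.625 of the range; chance flags about 1 in 20. All 11 are pair differences, given as log2 differences of marked minus unmarked. Day 270 pair 2, whose marked library had the largest share of ribosomal-like reads, gave 5 of them: Pim2 at -1.68, Tnfrsf17 at -0.30, Bcl2 at -0.96, Rpl6 at -0.70 and Slc1a5 at -0.87. The median difference over all tested genes was -0.59 in this pair, against -0.28 to 0.07 in the other pairs. The part of that library in these values was not tested. Day 60 pair 1 had the smallest differences of Hbb-bs (1.70) and H2-Eb1 (-1.28), both still in the direction of the other pairs. In day 270 pair 3, Siglecg was lowest at -5.33 and Erg, which had no reads in most libraries, stood at 3.93. Day 270 pair 1 had the smallest fall of Il21r (-0.77) and the largest of its neighbour Il4ra (-3.81).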

How the results depend on the processing

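Of the 106 called named genes, 82 could be tested with a minimum mean of 5 CPM and all 106 in the other 22 alternatives, and none changed direction where tested. Against 236 calls, 156 were made with a pseudocount of 0.1, 369 with TMM scaling, 369 with totals that leave out ribosomal-like, mitochondrial and Jchain reads (140 higher, 229 lower), 413 with limma-voom (221 higher, 192 lower), 699 by DESeq2, split into 311 higher and 388 lower, and 894 when libraries were weighted by quality, split into 166 and 728. edgeR called 242, at 123 higher and 119 lower. With 4 or fewer pairs the counts were 71 with the day 60 pairs only, 16 with the day 270 pairs only, 17 with the replicate 1 pairs only, 51 with the pairs of replicates 2 and 3 only, and 86 without the pairs rich in ribosomal-like features, an alternative chosen after seeing the data. Leaving out each pair gave 88 to 393 calls. Without the replicate block 234 genes were called, 196 of them among the 236, and with the specimen as a random effect 238, with 197; of the 106 called named genes, 6 were lost without the block. Leaving out a day 60 pair lost 42, 53 and 37 of the 106 (pairs 1, 2 and 3), and leaving out a day 270 pair 44, 14 and 5. The contrast between days had 2 calls with DESeq2 and 0 in the other alternatives run. Mcl1 fell by 0.34 on the log2 scale with quality weights (limma adjusted p 0.0248) and was not called in the other alternatives (adjusted p 0.0617 to 0.677). With 6 pairs and totals from 7449468 reads, genes that did not pass are not shown to be equal. Library number cannot be told apart from marking outside the replicate 1 pairs, in which the numbers are neighbours with the unmarked library first. In every pair, the sort and the processing of marked and unmarked cells cannot be told apart from marking.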

Other observations

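Of the 236 called genes, 149 stand in none of the 47 lists. Those described in this paragraph and the next were chosen after their values were seen, and the alternatives in which their calls held were not counted. Napsa, an aspartic protease, had 136 to 208 CPM (median 174) in unmarked and 55.8 to 98.03 (median 69.7) in marked libraries (-1.25 ± 0.12, limma adjusted p 5.60e-05). Cd180, a Toll-like receptor relative of B cells, had 83.1 to 156 CPM (median 110.0) in unmarked and 28.1 to 66.3 (median 48.8) in marked libraries (-1.25 ± 0.19), and Spn, the sialoglycoprotein CD43, had 70.7 to 126 CPM (median 101) in unmarked and 15.7 to 52.9 (median 36.5) in marked libraries (-1.57 ± 0.23). Fgl2, a fibrinogen-like protein, changed by -2.48 ± 0.37, Hpse, which cleaves heparan sulfate, by -1.33 ± 0.23, and Nt5e, the ectoenzyme CD73, by -2.19 ± 0.46 from at most 6.09 CPM. The populations overlapped for Nt5e and not for the other 5 genes. St6gal1, which adds terminal sialic acid to glycans, was more abundant and changed less, with 1447 to 1959.8 CPM (median 1844) in unmarked and 715 to 1528 (median 1269.7) in marked libraries (-0.55 ± 0.12, limma adjusted p 0.0287).

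Higher genes outside the lists include Slpi, a secreted protease inhibitor and the most abundant of the rises, at 2183 to 4340.4 CPM (median 2980.0) in unmarked and 3266 to 6047 (median 4661) in marked libraries (0.60 ± 0.10, limma adjusted p 0.0058). Spns3, a transporter of the spinster family, had 60.7 to 88.1 CPM (median 77.3) in unmarked and 106 to 176 (median 143) in marked libraries without overlap (0.87 ± 0.12, limma adjusted p 0.00136). Hsd11b1, which regenerates active glucocorticoid, changed by 0.60 ± 0.12 and Scarb2, a lysosomal membrane protein, by 0.46 ± 0.10, the latter without overlap. Satb1, a chromatin organiser (1.04 ± 0.25), and Lmo2, a transcription cofactor (1.01 ± 0.23), were less abundant, with marked medians of 30.9 and 40.7 CPM.

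Genes that are neighbours among the tested genes of a chromosome (GRCm38) and called in the same direction formed 15 adjacent pairs. Genes that were not tested can lie between them. On chromosome 17, Enpp5 (44078813 to 44086567), Enpp4 (44096308 to 44105809) and Clic5 (44188584 to 44280172) rose. The tested genes next to them, Cyp39a1 before (log2 fold change -1.05 ± 0.52, limma adjusted p 0.31) and Runx2 after (-0.95 ± 0.58, limma adjusted p 0.417), were not called and had the opposite sign. Il4ra and Il21r on chromosome 7, 23955 bases apart, both fell. Bmi1 and Spag6l (an identifier that GENCODE M21 names Spag6) on chromosome 2 lie 7403 bases apart and both rose, by 0.65 and 1.18, the call of Spag6l holding in 14 of 23 alternatives. Other such pairs are the class II genes, the globin genes, Mt2 with Mt1, and Scd2 with Scd1. How often neighbours share a direction among all genes was not counted.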
